A study of Arabidopsis thaliana with 36 samples.

Results

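The TIR-NBS genes of Arabidopsis thaliana encode intracellular immune receptors with a Toll/interleukin-1 receptor (TIR) domain and a nucleotide-binding site (NBS), in most cases followed by leucine-rich repeats (LRR). Their transcript levels were followed through the day in leaves of 2 ages. The members were the loci whose description in the deposited table names TIR-NBS and that reached 1 FPKM (fragments per kilobase of transcript, scaled to library size) in at least 3 of 36 libraries. By description there were 95 loci with 120 transcripts, out of 33279 loci in the table. The level filter kept 67 of these 95, among 18729 loci kept in all. Polyadenylated RNA came from rosette leaves of wild-type Col-0 plants at 35 days after sowing (DAS) and at 21 DAS. Sampling fell at ZT1, 5, 9, 13, 17 and 21, counted in hours from lights on. All plants grew at 22 °C with 16 h of light and 8 h of dark, so ZT17 and ZT21 lay in the dark. Each of the 12 groups of age and time has 3 libraries. The sample labels give the 3rd and 4th leaves where the series text gives the third leaf. Titles number the 3 libraries by batch, which the series text calls biological replicates. Whether a number stands for separate plants is not stated, so p-values measure the spread between these libraries. By its title, the series asks how the daily timing of transcripts changes in aged plants.

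TIR-NBS-LRR proteins recognise pathogen effectors inside the plant cell or watch the host proteins that effectors attack. Activated TIR domains act as enzymes on NAD+, and their products are sensed by complexes of EDS1 with PAD4 or SAG101, which work with helper receptors of the ADR1 and NRG1 families. The outcome is salicylic acid signalling, defence gene expression and, in many cases, local cell death. Overactive receptors stunt growth, and their levels are set by chaperones, ubiquitin ligases and other regulators. The genes lie in clusters of related copies, and some pairs stand head to head with both transcripts starting from the gap between them.

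The sum of FPKM over all loci ran from 829518 to 947688 per library at 35 DAS and from 872504 to 952310 at 21 DAS. The sequencing depth of each library is not given in the table, so no counting intervals were computed. The markers are those of a leaf, with photosynthesis transcripts far above root and flower ones. The 4 mesophyll markers (RBCS1A, RBCS2B, LHCB1.3 and LHCA1) were all called lower at 35 DAS, and their summed level ran from 4677 to 33673 FPKM at 35 DAS and from 31813 to 58801 FPKM at 21 DAS. The 2 guard cell markers GC1 and KAT1 were also called lower, with sums of 14.2 to 66.9 FPKM at 35 DAS and 51.0 to 142 FPKM at 21 DAS. Of 2 phloem markers, 1 was called higher and 1 lower, and of 2 epidermis markers 1 was called lower. Among the root markers 1 was called higher, and among the flower markers 1 lower. The 3 root markers together stayed at or under 6.23 FPKM at 35 DAS and 0.750 FPKM at 21 DAS, and the 3 flower markers at or under 2.07 and 1.65 FPKM. The part of these shifts in the results was not tested. In bulk leaves, fewer cells of a type and less RNA per cell cannot be told apart. FPKM is a share of each library. Age effects are given for the values as deposited and again after rescaling each library by the median ratio of its genes, which moves the median of all loci by more than 0.1 log2 units and so moves members too.

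Among the 67 members, 54 were described as TIR-NBS-LRR, of 80 such loci in the table, and 11 as TIR-NBS, of 13. The other two were AT5G46500, described only by its similarity to a TIR-NBS-LRR protein, and AT5G40920, a pseudogene. Of the 28 loci that the filter removed, 5 were listed at 0 in every library and the highest value of any was 1.19 FPKM. One of them was RLM1, named for resistance to the fungus Leptosphaeria maculans. Just inside the filter stood AT1G72870, with 8 libraries at 1 FPKM or more and a third-highest value of 1.22 FPKM, and AT5G48780, with 7 libraries and 1.26 FPKM. Just outside were AT1G17615, with a third-highest value of 0.872 FPKM, and AT5G38340, with 0.762 FPKM. At least 3 libraries of 35 DAS reached 1 FPKM for 67 of the 67 members, and at least 3 libraries of 21 DAS did for 60. The remaining 7 would not have passed at 21 DAS alone, so a higher level at 35 DAS was built into their selection. In 5 of them, AT1G72850, AT1G72870, AT1G72950, AT3G25510 and AT5G48780, no library of 21 DAS reached 1 FPKM, and the other two are AT3G04220 and AT5G48770. In 43 members every library reached 1 FPKM.

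Levels spanned a wide range. Mean FPKM over the 36 libraries was under 5 in 29 members, from 5 to under 20 in 25 and 20 or more in 13, with a median of 6.17 against 12.5 for all loci kept. AT3G04210, a TIR-NBS gene without LRR, had the highest mean, with 111 FPKM at 35 DAS and 83.7 FPKM at 21 DAS. RLM3, a TIR-NBS gene named for resistance to Leptosphaeria maculans, followed with 91.7 FPKM at 35 DAS and 84.6 FPKM at 21 DAS. The libraries of these top loci overlapped widely. AT3G04210 had a lowest value of 49.6, a median of 98.3 and a highest of 234 FPKM at 35 DAS, against 36.8, 88.5 and 113 FPKM at 21 DAS. RLM3 had 53.0, 89.2 and 148 FPKM at 35 DAS, against 60.5, 75.8 and 125 FPKM at 21 DAS. Next came RPP5 with a mean of 45.9 FPKM, AT1G63880 with 39.5, RPP4 with 33.3 and AT3G44630 with 32.2. RPP1, RPP4 and RPP5 are named for recognition of downy mildew. Near-identical exon copies elsewhere in the genome (at least 100 bases at 95% identity) covered 63.0% of RPP4, 62.5% of AT4G16960, 57.5% of VICTL, 49.5% of RPP1, 46.6% of AT3G44670, 38.5% of AT3G44630 and 28.9% of RPP5. Levels of these 7 are uncertain, since the counting may have split or dropped their reads.

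Most of the receptor genes were higher in the older leaves. Averaged over the 6 times, 58 of the 67 members were called higher at 35 DAS and 3 lower by limma at a Benjamini-Hochberg adjusted p under 0.05. Over all loci kept, 64.5% were called higher and 23.2% lower. The median log2 fold change on the log2(FPKM + 1) scale was 0.55 for the members and 0.39 for all loci. Among the 60 members that passed the filter at 21 DAS alone, 51 were called higher and 3 lower. After rescaling, 39 members were called higher and 10 lower, beside 42.6% and 38.3% of all loci, and the medians were 0.21 and 0.04. Of the 58, 39 were higher in both versions, 17 lost the call and 2 (CSA1 and AT5G38850) turned lower. A rise of at least 1 log2 unit was called in 8 members (14.5% of all loci) and a fall of that size in 1 (6.95% of all loci). Members with LRR were called higher in 50 of 54 cases and lower in 1, with a median of 0.58. Members described as TIR-NBS were called higher in 6 of 11 cases and lower in 2, with a median of 0.32. After rescaling these counts were 33 and 6 of 54, and 5 and 4 of 11. Both versions include the 7 members that did not pass the filter at 21 DAS alone, AT1G72850 of the TIR-NBS set among them. Part of these rises was therefore built into the selection, and the subclasses were not counted again without the 7.

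**Figure D1:**
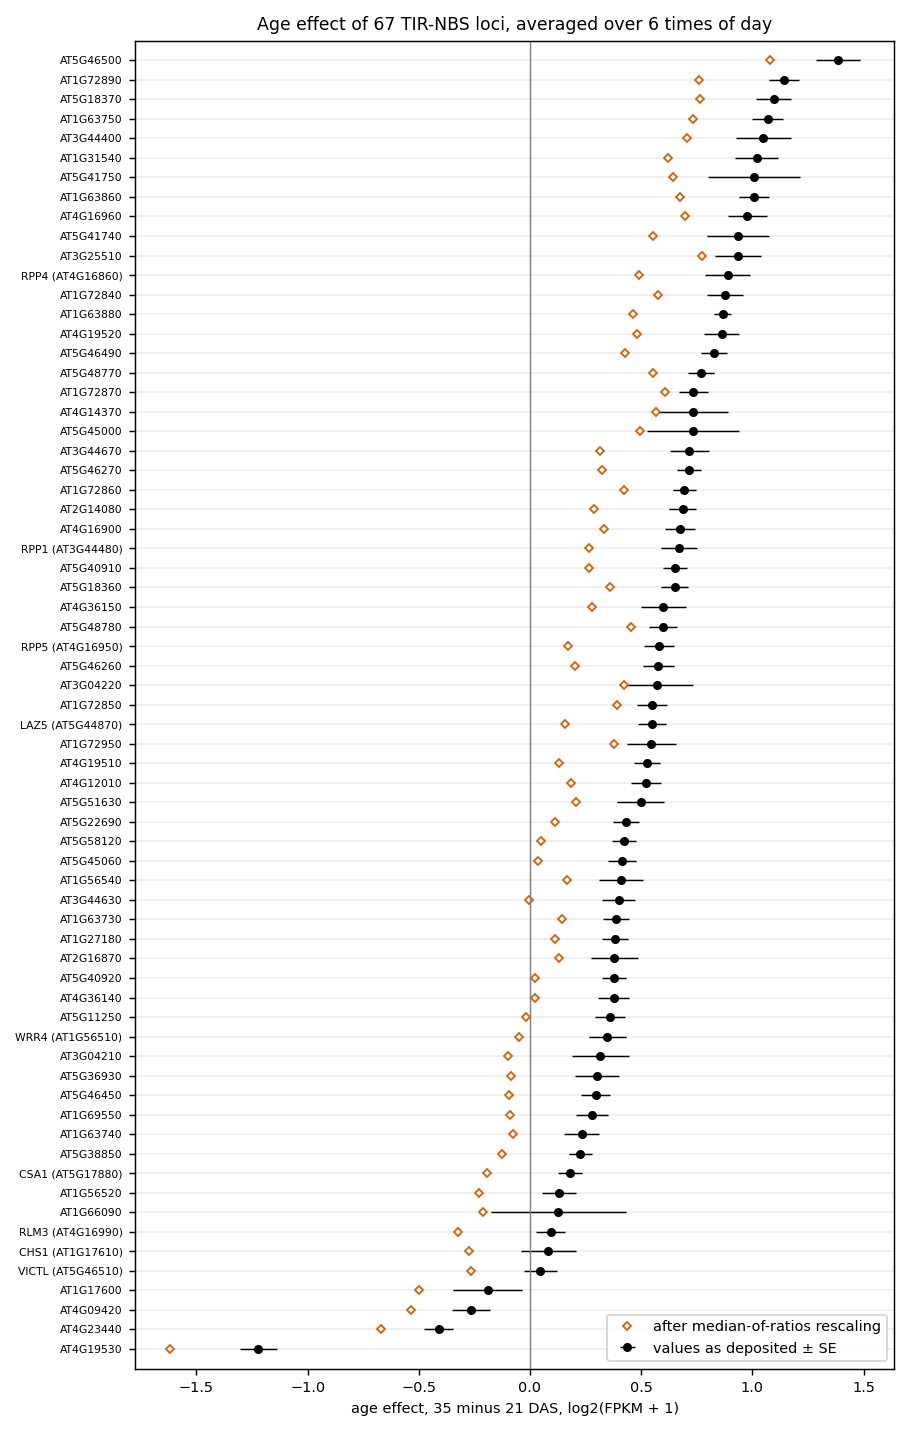
Age effect (35 minus 21 DAS, log2(FPKM + 1) on the x axis) of the 67 members on the y axis, averaged over 6 times; black points with bars are the values as deposited ± SE from limma and open diamonds the values after rescaling. Black points run from 1.38 for AT5G46500 to -1.22 for AT4G19530, and diamonds lie to the left of the points throughout, with 10 members called lower.

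With a pseudocount of 1, the largest rise belonged to AT5G46500 (TAIR10 chr5:18856454-18857787, plus strand), which lies between the receptor genes AT5G46490 and VICTL. Its lowest, median and highest values were 0.92, 5.33 and 17.4 FPKM in the 18 libraries of 35 DAS, against 0.33, 1.86 and 3.95 FPKM in the 18 of 21 DAS. The overall ranges overlapped, while at each of the 6 times every library of 35 DAS was above every one of 21 DAS. The difference was 1.38 ± 0.10 (SE, adjusted p = 2.24e-13 by limma), was called at all 6 times and was 1.08 after rescaling. With a pseudocount of 0.1 its effect was 1.79, under the 2.06 of both AT3G25510 and AT1G72870, members with no library of 21 DAS at 1 FPKM. AT1G72890 (chr1:27429916-27431960, plus strand), a TIR-NBS gene, was the single member whose libraries did not overlap between ages. It had 12.1, 17.5 and 25.2 FPKM at 35 DAS, against 4.46, 6.84 and 10.9 FPKM at 21 DAS. Separation of this kind upward was seen in 7.56% of all loci and downward in 3.75%, with 0 members downward. The difference was 1.14 ± 0.07 (SE, adjusted p = 5.9e-15 by limma) and 0.76 after rescaling. AT5G18370 (chr5:6085036-6088926, minus strand) rose by 1.096 ± 0.08, with a median of 6.88 FPKM at 35 DAS and 2.48 FPKM at 21 DAS.

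The other 9 of the 12 largest called rises lay between 0.89 and 1.07 on the log2 scale, and between 0.49 and 0.77 after rescaling with all 9 still called. AT1G63750 rose by 1.07, with a median of 6.01 FPKM at 35 DAS and 2.58 FPKM at 21 DAS. AT3G44400 rose by 1.05, with 8.13 FPKM at 35 DAS and 2.88 FPKM at 21 DAS. AT1G31540 rose by 1.02, with 30.6 FPKM at 35 DAS and 14.2 FPKM at 21 DAS, the highest level of this set apart from RPP4. AT5G41750 and AT1G63860 rose by 1.01 each, AT4G16960 by 0.98, AT5G41740 by 0.94 and AT3G25510 by 0.93. AT3G25510 entered through the older leaves, with no library of 21 DAS at 1 FPKM. RPP4 rose by 0.89 ± 0.10 (SE), with 21.0, 46.8 and 64.3 FPKM at 35 DAS against 5.21, 23.3 and 43.7 FPKM at 21 DAS, so its libraries overlapped. SEs of these 9 ran from 0.07 to 0.21, and the widest was that of AT5G41750, whose libraries were uneven.

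The largest fall stood against the rest of its own cluster. AT4G19530 (chr4:10651744-10657282, plus strand), a TIR-NBS-LRR gene, had a lowest value of 8.58, a median of 14.8 and a highest of 34.4 FPKM at 35 DAS, against 20.4, 33.3 and 100.3 FPKM at 21 DAS. At ZT17 the 3 libraries had 34.4, 19.8 and 25.3 FPKM at 35 DAS and 70.8, 86.0 and 100.3 FPKM at 21 DAS. The libraries of the ages were separate at each of the 6 times, while the overall ranges overlapped. The age effect was -1.22 ± 0.08 (SE, adjusted p = 9.13e-14 by limma), was called lower at all 6 times and was -1.62 after rescaling. Its neighbours AT4G19510 and AT4G19520 rose by 0.53 ± 0.06 and 0.86 ± 0.08, and AT4G19520 stands head to head with AT4G19530 across 4664 bases. AT4G23440 fell by 0.41 ± 0.07 (adjusted p = 1.62e-06 by limma), with medians of 1.38 FPKM at 35 DAS and 2.09 FPKM at 21 DAS. AT4G09420 fell by 0.27 ± 0.09 (adjusted p = 0.00573 by limma), with 1.62 FPKM at 35 DAS and 2.26 FPKM at 21 DAS. Both of the smaller falls were in TIR-NBS genes without LRR. The 300 bases before the outermost annotated start of the members with the largest rise and the largest fall at a pseudocount of 1 are shown here, read from the TAIR10.1 RefSeq genome in the direction of transcription, with each W-box core (TTGAC or its reverse complement GTCAA) in capitals. TTGAC is the core of the sites bound by WRKY transcription factors, and the window of AT5G46500 (chr5:18855655-18855954, plus strand) holds 1 copy while that of AT4G19530 (chr4:10651444-10651743, plus strand) holds 0.
AT5G46500: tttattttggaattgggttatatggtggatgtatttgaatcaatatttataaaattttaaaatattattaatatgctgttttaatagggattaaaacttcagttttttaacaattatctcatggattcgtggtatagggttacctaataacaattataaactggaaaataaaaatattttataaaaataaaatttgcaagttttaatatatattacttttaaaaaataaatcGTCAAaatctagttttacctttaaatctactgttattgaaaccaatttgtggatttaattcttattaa
AT4G19530: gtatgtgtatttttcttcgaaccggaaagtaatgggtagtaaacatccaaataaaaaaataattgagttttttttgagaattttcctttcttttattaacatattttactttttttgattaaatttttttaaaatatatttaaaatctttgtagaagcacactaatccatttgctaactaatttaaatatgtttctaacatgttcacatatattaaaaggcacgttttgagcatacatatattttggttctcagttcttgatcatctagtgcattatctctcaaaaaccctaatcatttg

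The remaining named loci among the 10 lowest called effects were small rises that rescaling undid. CSA1, a TIR-NBS-LRR gene whose product works together with DAR4 (CHS3), rose by 0.18 ± 0.05 (adjusted p = 0.00335 by limma) and was at -0.19 after rescaling (adjusted p = 0.00228). AT5G38850 rose by 0.23 and was at -0.13 after rescaling (adjusted p = 0.0329 by limma). AT1G63740, AT1G69550, AT5G46450, AT5G36930 and AT3G04210 rose by 0.23 to 0.32, and after rescaling 0 of these 5 were called, with values from -0.10 to -0.08. The age effect of 6 members was not called. They were AT1G17600 at -0.19 ± 0.15, VICTL at 0.05 ± 0.07, CHS1 at 0.08 ± 0.12, RLM3 at 0.09 ± 0.07, AT1G66090 at 0.13 ± 0.30 and AT1G56520 at 0.13 ± 0.08 (SE), and 5 of the 6, all but AT1G66090, were called lower after rescaling.

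Of the receptors that carry a name from genetic studies, several were members. RPP1 had medians of 34.9 FPKM at 35 DAS and 21.3 FPKM at 21 DAS and rose by 0.67 ± 0.08 (adjusted p = 8.43e-09 by limma). RPP5 had 52.5 FPKM at 35 DAS and 38.9 FPKM at 21 DAS and rose by 0.58 ± 0.07 (adjusted p = 5.72e-09 by limma). LAZ5, known from the suppression of spontaneous cell death, had 16.1 FPKM at 35 DAS and 12.2 FPKM at 21 DAS and rose by 0.55 ± 0.06. WRR4, which confers white rust resistance, had 24.8 FPKM at 35 DAS and 16.7 FPKM at 21 DAS and rose by 0.35 ± 0.08, which was -0.05 after rescaling (adjusted p = 0.596 by limma). CHS1, a truncated TIR-NBS gene known from chilling-sensitive mutants, had 7.87 FPKM at 35 DAS and 6.66 FPKM at 21 DAS. AT1G31540, AT4G12010 and AT1G56540, also on the list of studied loci, rose by 1.02, 0.52 and 0.41. The list held 26 loci, of which 18 matched the description and 16 were kept. The 8 that are described otherwise in the table (RPS4, RRS1, SNC1, DAR4, TAO1, RPS6, VICTR and WRKY19) were called higher in 8 of 8 cases, with log2 fold changes from 0.38 for TAO1 to 0.96 for WRKY19, and in 5 of 8 after rescaling, beside 64.5% and 42.6% of all loci.

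Members lie close together on the chromosomes. With a limit of 50 kb between neighbours that match the description, 17 clusters held 2 or more members, and they held 49 of the 67. Members were called higher in 86.6% of cases and all loci in 64.5%, so the counts per cluster are descriptive only. In the cluster of AT1G72840 to AT1G72950 on chromosome 1, 6 of 6 members rose, by 0.55 to 1.14. Of these, AT1G72850, AT1G72870 and AT1G72950 stayed under 1 FPKM in every library of 21 DAS, so a rise was built into their selection, and the other 3 rose by 0.69 to 1.14. In the cluster of AT1G63730 to AT1G63880, 5 of 5 rose, by 0.23 to 1.07, and AT1G63740 was no longer called after rescaling (-0.08). In the RPP4 and RPP5 cluster on chromosome 4, 4 of 5 rose, by 0.58 to 0.98, and RLM3 at its edge was not called. In the cluster of AT5G46450 to VICTL, 3 of 4 rose and effects ran from 0.05 for VICTL to 1.38 for its neighbour AT5G46500. AT5G46450 was no longer called after rescaling (-0.09).

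Among loci with this description, 10 pairs stood head to head, and both partners were kept in 6. Distances are those between the deposited gene models. The TAIR10.1 annotation puts all 230 bases between AT1G17600 and CHS1 inside a gene. It does so for the 244 bases of AT1G72860 and AT1G72870 and the 239 of AT4G36140 and AT4G36150. For AT1G72840 and AT1G72850 it does so for 90 of the 119 bases. AT1G17600 and CHS1, 230 bases apart, had age effects of -0.19 ± 0.15 and 0.08 ± 0.12 (SE), and their fitted peaks at 35 DAS lay at ZT18.7 and ZT18.5. AT1G72840 and AT1G72850, 119 bases apart, rose by 0.88 and 0.55. AT1G72860 and AT1G72870, 244 bases apart, rose by 0.69 and 0.74. AT4G36140 and AT4G36150, 239 bases apart, rose by 0.38 and 0.60, and after rescaling AT4G36140 was at 0.02 and not called. AT5G48770 and AT5G48780 rose by 0.77 ± 0.06 and 0.60 ± 0.06 (SE), with medians of 1.88 and 0.95 FPKM at 35 DAS and of 0.77 and 0.28 FPKM at 21 DAS. Neither gene of this pair passed the filter at 21 DAS alone, so its rise, like those of AT1G72850 and AT1G72870, was built into the selection. The last pair, AT4G19520 and AT4G19530, moved in opposite directions. The gap of AT5G48770 and AT5G48780 (chr5:19777243-19777452, 210 bases, plus strand of TAIR10.1) is shown because both genes start from it. It is the short gap with 0 bases inside a gene of the TAIR10.1 annotation. It holds 4 W-box cores, in capitals. Of all loci kept, 40.2% have at least 1 in a window of that length before their start, and the share with 4 was not counted.
AT5G48770/AT5G48780: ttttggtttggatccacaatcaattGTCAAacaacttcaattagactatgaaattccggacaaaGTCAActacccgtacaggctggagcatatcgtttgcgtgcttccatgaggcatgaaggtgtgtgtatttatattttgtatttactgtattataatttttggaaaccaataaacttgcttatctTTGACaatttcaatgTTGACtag

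The age effect of the members varied in size over the day. At ZT1, 52 of 67 members were called higher and 2 lower (53.2% and 17.3% of all loci), and the median effect was 0.84 for the members and 0.45 for all loci. At ZT5, 38 were higher and 1 lower (48.3% and 15.2%), with medians of 0.53 and 0.37. At ZT9, 31 were higher and 4 lower (52.2% and 17.7%), with medians of 0.38 and 0.43. At ZT13, 15 were higher and 3 lower (39.7% and 18% of all loci), with medians of 0.21 and 0.24. At ZT17, 45 were higher and 2 lower (46% and 18.5%), with medians of 0.66 and 0.33. At ZT21, 52 were higher and 3 lower (53% and 18.4%), with medians of 0.73 and 0.45. The members' share of rises was below that of all loci at ZT9 and ZT13 and above it at the other 4 times. After rescaling the members' medians were 0.45, 0.25, -0.02, 0.01, 0.34 and 0.34 from ZT1 to ZT21. The effect was above 0 at all 6 times in 39 members (50.9% of all loci). 11 members were called higher at all 6 times (25.7% of all loci), among them AT5G46500, AT1G72890, AT1G63750, AT1G63860 and AT1G63880, and AT4G19530 was called lower at all 6.

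**Figure D2:**
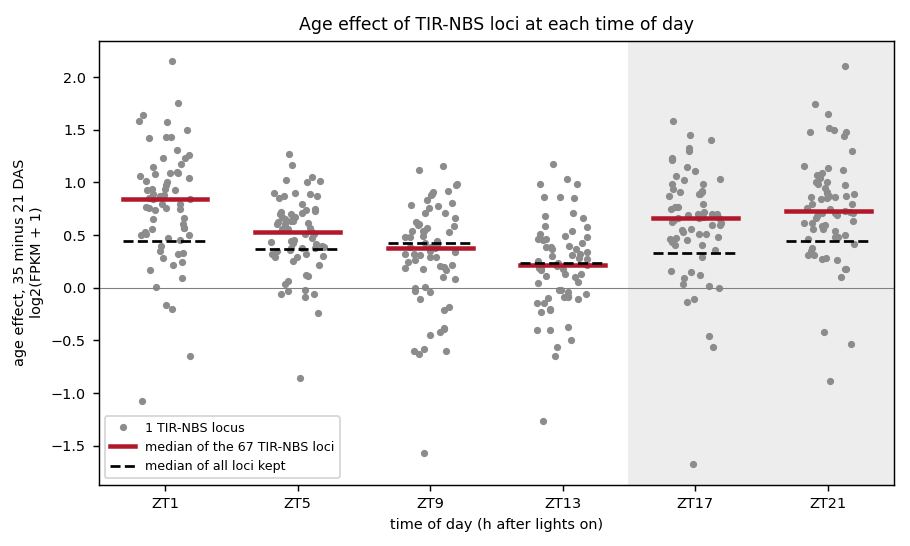
Age effect at each time of day (x axis, ZT in h; the dark is shaded) on the log2(FPKM + 1) scale (y axis); each grey point is 1 of the 67 members, red bars are their medians and dashed lines the medians of all 18729 loci kept. The members' median is highest at ZT1, at 0.84, and lowest at ZT13, at 0.21, where it meets that of all loci at 0.24.

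The change of the age effect between night (ZT17 and ZT21) and day (ZT1 to ZT13) was tested on its own. It was called in 6 of 67 members, against 15.8% of all loci, and in 6 of the 6 the age effect was larger at night. Of all loci, 6.46% were called in that direction and 9.3% in the other. AT5G40910 (chr5:16395507-16399129, plus strand), a TIR-NBS-LRR gene, had the smallest p. At ZT17 it had 29.5, 24.4 and 25.05 FPKM at 35 DAS, against 9.18, 10.7 and 12.2 FPKM at 21 DAS, which do not overlap. At ZT13 it had 17.95, 15.1 and 16.0 FPKM at 35 DAS, against 17.4, 16.1 and 14.2 FPKM at 21 DAS, which do. The night-minus-day difference was 0.61 ± 0.11 (SE, adjusted p = 0.000516 by limma) and 0.60 after rescaling. The adjacent pseudogene AT5G40920 had 0.54 ± 0.12 (adjusted p = 0.00206 by limma). AT5G46500 had 0.69 ± 0.21 (adjusted p = 0.0244), AT5G11250 0.49 ± 0.14 (adjusted p = 0.0181), AT1G69550 0.48 ± 0.15 (adjusted p = 0.0301) and AT1G63730 0.36 ± 0.12 (adjusted p = 0.0435), all by limma. AT5G40910 was called whichever replicate number was left out and AT5G40920 in 2 of 3 such fits, whereas the other 4 lost the call in every one.

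**Figure D3:**
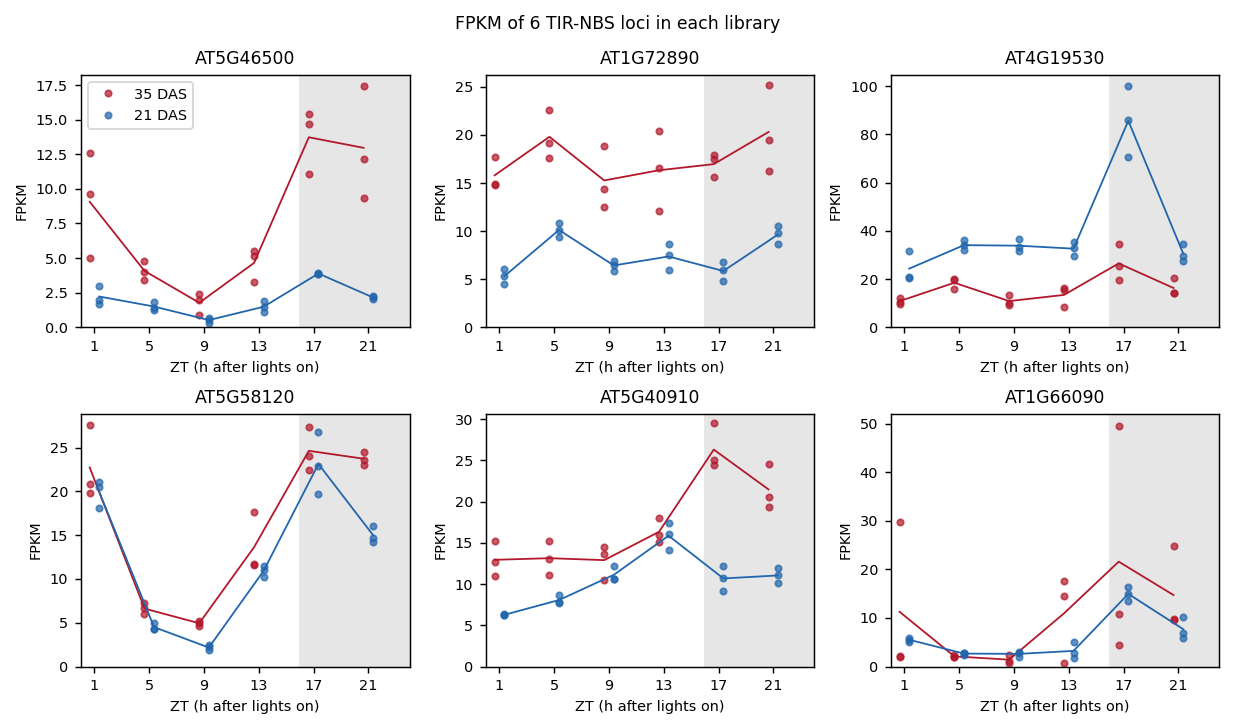
FPKM (y axis) of 6 members against ZT (x axis, h after lights on; the dark is shaded); points are the 3 libraries of each group and lines join the group means, in red for 35 DAS and blue for 21 DAS. AT1G72890 separates the ages at every time, AT4G19530 is lower at 35 DAS at every time, and AT5G40910 meets at ZT13 and separates at ZT17, with 29.5, 24.4 and 25.05 FPKM at 35 DAS against 9.18, 10.7 and 12.2 FPKM at 21 DAS.

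A daily rhythm, fitted as a 24-h cosine with an amplitude of at least 0.5 on the log2 scale, was called in 18 members at 35 DAS and in 23 at 21 DAS. Over all loci kept, 17.3% were rhythmic at 35 DAS and 26.8% at 21 DAS. The fit used 1 spread per locus for both ages. With array weights per age, 17 members were rhythmic at 35 DAS and 23 at 21 DAS. Both calls were made in 11 members, 7 were rhythmic at 35 DAS alone, 12 at 21 DAS alone and 37 at neither age by this rule. At 35 DAS the fitted peaks of the 18 lay between ZT17.55 and ZT21.2, all in the dark, where 56.0% of all rhythmic loci of that age peaked. At 21 DAS the peaks of the 23 lay between ZT10.2 and ZT21.6, and 10 of them fell in the dark, where 43.7% of all rhythmic loci peaked. After rescaling, 14 were rhythmic at 35 DAS and 15 at 21 DAS, beside 15.3% and 23.4% of all loci. Of these members 13 and 7 peaked in the dark. The earliest peak at 35 DAS was then that of RPP4, at ZT7.7. The share of all rhythmic loci that did so after rescaling is not given here.

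The deepest rhythm at 21 DAS was that of AT5G58120 (chr5:23517492-23521067, plus strand), a TIR-NBS-LRR gene. Its amplitude was 1.14 ± 0.05 at 35 DAS and 1.32 ± 0.05 at 21 DAS (SE), with peaks at ZT19.98 ± 0.18 at 35 DAS and ZT19.89 ± 0.16 at 21 DAS. At ZT9 its libraries had 5.19, 4.97 and 4.67 FPKM at 35 DAS and 2.18, 2.41 and 1.92 FPKM at 21 DAS. At ZT17 they had 22.5, 24.1 and 27.3 FPKM at 35 DAS and 19.7, 22.9 and 26.8 FPKM at 21 DAS. The rhythm difference between ages was not called (adjusted p = 0.142 by limma), and after rescaling it was (adjusted p = 0.0384). AT1G66090 had the largest amplitude at 35 DAS, 1.41 ± 0.30, followed by AT5G46500 with 1.18 ± 0.10, AT5G58120 and AT5G41750 with 1.12 ± 0.21. At 21 DAS, after AT5G58120, AT5G45000 had 1.03 ± 0.21, AT1G66090 0.98 ± 0.30 and AT5G41750 0.86 ± 0.21. These SEs use 1 spread per locus for both ages. The mean SD within groups of AT1G66090 was 1.13 at 35 DAS and 0.25 at 21 DAS. Its SE is therefore too small at 35 DAS and too large at 21 DAS. The 11 members rhythmic at both ages had a median change of peak time of 1.08 h, later in 9 of 11, whereas the 2398 loci rhythmic at both ages had a median of -0.13 h, later in 46.2%. This shift depended on the scaling. After rescaling the same 11 had a median of 0.10 h, later in 6. The 8 members called rhythmic at both ages after rescaling had a median of -0.35 h, later in 2. All such loci then had -0.32 h, later in 41.1%. Without the 6 libraries highest in PR1, the same 11 had a median of 1.62 h, later in 11. All loci rhythmic at both ages then had -0.23 h, later in 44.2%.

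The rhythm itself was tested for a difference between ages, and 24 of 67 members were called, against 27.1% of all loci. The amplitude was smaller at 35 DAS in 12 of the 24 and larger in 12, while among all loci called it was smaller in 80.8%. AT1G63880 (chr1:23712276-23716124, minus strand) had the smallest p (adjusted p = 4.4e-05 by limma). At ZT1 its libraries had 25.3, 23.1 and 20.8 FPKM at 35 DAS, against 7.44, 7.61 and 6.24 FPKM at 21 DAS. At ZT17 they had 85.3, 70.6 and 82.9 FPKM at 35 DAS, against 47.6, 43.0 and 48.7 FPKM at 21 DAS. The libraries of 1 group lay close together and those of the ages were separate at both times. Its amplitude was 0.48 ± 0.04 at 35 DAS and 0.75 ± 0.04 at 21 DAS. Its fitted peak lay at ZT16.6 ± 0.3 at 35 DAS and in the light at 21 DAS, at ZT14.7 ± 0.2. The peak at 35 DAS was less than 2 SE after lights off at ZT16, and after rescaling it lay at ZT16.2. AT1G63860, from the same cluster, had an amplitude of 0.20 ± 0.07 at 35 DAS and 0.67 ± 0.07 at 21 DAS (adjusted p of the difference 0.0001 by limma). AT5G40910 peaked at ZT17.8 ± 0.4 at 35 DAS and ZT13.8 ± 0.4 at 21 DAS with like amplitudes of 0.50 and 0.48 (adjusted p = 0.000114 by limma). AT5G40920 peaked at ZT17.53 at 35 DAS and ZT12.3 at 21 DAS (adjusted p = 0.000443 by limma) and AT5G46270 at ZT19.7 at 35 DAS and ZT15.7 at 21 DAS (adjusted p = 0.00104 by limma). In AT2G14080 the amplitude was 0.09 ± 0.06 at 35 DAS and 0.49 ± 0.06 at 21 DAS (adjusted p = 0.00183 by limma). These 6 were called after rescaling too. In each of them the amplitude was under 0.5 at 35 DAS, at 21 DAS or at both. Their peak times are therefore not those of rhythms called at both ages. RPP4 and RPP5, singled out after their values were seen, were the earliest rhythmic members at 21 DAS and had earlier fitted peaks at 35 DAS. RPP4 peaked at ZT8.4 ± 0.9 at 35 DAS and ZT10.2 ± 0.5 at 21 DAS, and RPP5 at ZT9.5 ± 1.0 at 35 DAS and ZT11.3 ± 0.4 at 21 DAS. The shifts of -1.77 ± 1.02 h and -1.80 ± 1.096 h (SE) were smaller than 2 SE. Without the 6 libraries highest in PR1 they were -3.73 h and -2.78 h, with 1 library left at ZT13 and at ZT21 of 35 DAS. The amplitude of RPP4 was 0.42 ± 0.10 at 35 DAS and 0.85 ± 0.10 at 21 DAS. That of RPP5 was 0.25 ± 0.07 at 35 DAS and 0.62 ± 0.07 at 21 DAS. With the values as deposited, neither was rhythmic at 35 DAS by the amplitude rule. After rescaling RPP4 was, with an amplitude of 0.53 and a peak at ZT7.7. The difference tests of RPP4 and RPP5, which take amplitude and peak time jointly, gave adjusted p = 0.0257 and 0.00768 by limma. RPP4 was no longer called after rescaling (adjusted p = 0.0626 by limma).

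**Figure D4:**
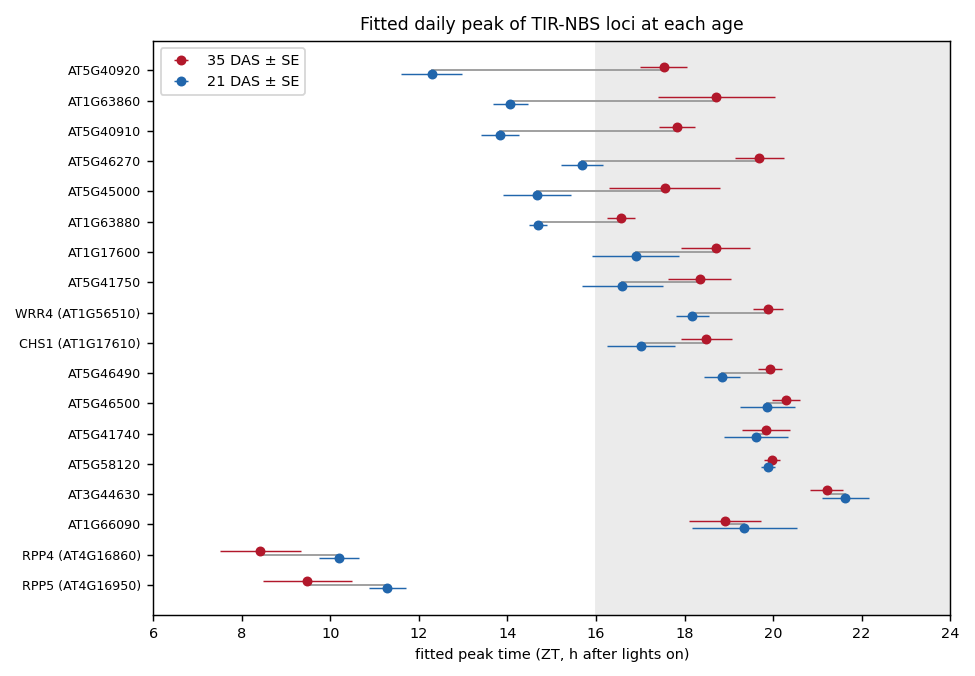
Fitted peak time (x axis, ZT in h; the dark is shaded) at 35 DAS (red) and 21 DAS (blue), ± SE, of 18 members on the y axis: the 11 rhythmic at both ages, those of the 6 strongest rhythm differences with a fitted rhythm at both ages, and RPP4 and RPP5. AT5G40910 moves to ZT17.8 at 35 DAS against ZT13.8 at 21 DAS, AT5G58120 stays at ZT19.98 and ZT19.89, and the fitted peaks of RPP4 and RPP5 are earlier at 35 DAS by less than 2 SE.

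Windows of the members with the deepest rhythm at 21 DAS and with the strongest rhythm difference are shown, 300 bases before the outermost annotated start in the direction of transcription, from the TAIR10.1 RefSeq genome with W-box cores (TTGAC or GTCAA) in capitals. The window of AT5G58120 (chr5:23516956-23517255, plus strand) holds 0 and that of AT1G63880 (chr1:23716207-23716506, minus strand) holds 3. The evening element AAAATATCT and the G-box CACGTG, letters known from clock-controlled promoters, were searched on both strands and occur in neither.
AT5G58120: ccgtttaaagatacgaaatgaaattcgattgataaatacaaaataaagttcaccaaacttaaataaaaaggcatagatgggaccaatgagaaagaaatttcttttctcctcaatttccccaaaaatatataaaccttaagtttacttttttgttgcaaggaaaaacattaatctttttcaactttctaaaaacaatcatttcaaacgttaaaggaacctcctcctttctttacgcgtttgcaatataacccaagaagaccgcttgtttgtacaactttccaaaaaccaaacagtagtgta
AT1G63880: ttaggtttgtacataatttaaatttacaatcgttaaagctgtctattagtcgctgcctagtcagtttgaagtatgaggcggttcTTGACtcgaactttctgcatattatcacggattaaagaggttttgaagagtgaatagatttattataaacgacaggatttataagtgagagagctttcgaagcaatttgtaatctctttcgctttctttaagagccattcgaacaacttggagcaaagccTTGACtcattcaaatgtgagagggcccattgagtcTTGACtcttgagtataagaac

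A W-box core lay in such a window in 38 of 67 members (56.7%) and in 50.1% of all loci kept. The evening element lay in 1.49% of members and 3.03% of all loci, and the G-box in 2.99% and 8%. With windows placed before the start in the deposited table, a W-box core lay in 76.1% of members and 50.9% of all loci. A match is not a binding site.

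The older leaves were uneven between libraries, and a set of members followed this. PR1, a salicylic acid marker, ranged from 5.70 to 1723 FPKM at 35 DAS with a median of 97.8, and from 0 to 167 FPKM at 21 DAS with a median of 2.07. Its level exceeded 500 FPKM in 6 libraries of 35 DAS. The mean SD within groups was larger at 35 DAS in 65 of 67 members (82.1% of all loci), with a median over members of 0.25 at 35 DAS and 0.13 at 21 DAS on the log2 scale. At 35 DAS, 31 members had their highest library of a group in the same library as PR1 at 4 or more of the 6 times (15.8% of all loci), and at 21 DAS 14 did (21.1% of all loci). AT1G66090 (chr1:24602146-24604763, plus strand), a TIR-NBS gene, was the most uneven. At ZT1 it had 29.7, 1.89 and 2.14 FPKM at 35 DAS, against 5.94, 5.53 and 5.07 FPKM at 21 DAS. At ZT13 it had 17.6, 0.73 and 14.5 FPKM at 35 DAS, against 5.11, 2.80 and 1.76 FPKM at 21 DAS. PR1 in the same libraries had 691, 22.3 and 37.7 FPKM at ZT1 and 1723, 12.1 and 1249.6 FPKM at ZT13 of 35 DAS, in the same order as AT1G66090 at both times. The part of this unevenness in the age effects was not tested. AT5G41750 had 33.0, 4.68 and 5.62 FPKM at ZT1 of 35 DAS, against 5.08, 4.18 and 2.49 FPKM at 21 DAS. AT1G63880, by contrast, stayed within 20.8 to 25.3 FPKM in these 3 libraries of 35 DAS.

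Without the 6 libraries above 500 FPKM of PR1, an alternative added after the data had been seen, 53 members were called higher and 6 lower, beside 63.5% and 22.7% of all loci, and the median was 0.46 for members and 0.38 for all loci. No member turned from higher to lower and 5 lost the call. AT1G66090 was then at -0.65 (adjusted p = 7.58e-05 by limma), AT5G41750 at 0.46 (adjusted p = 0.00016), AT5G41740 at 0.58 and AT5G45000 at 0.23 (adjusted p = 0.0786). AT1G17600 was at -0.55 (adjusted p = 1e-06 by limma) and CHS1 at -0.23 (adjusted p = 0.0149), both called lower. At ZT13, where this leaves 1 library at 35 DAS that is assumed to vary like the other groups, 10 members were called higher and 14 lower (35.2% and 15.5% of all loci). The night-minus-day differences of the 6 members called with all libraries were then 0.42 to 0.66. Their ZT13 and ZT21 means at 35 DAS rest on 1 library each. The window before AT1G66090 (chr1:24601733-24602032, plus strand of TAIR10.1) is shown for the member that went most unevenly with PR1, and it holds 2 W-box cores, in capitals.
AT1G66090: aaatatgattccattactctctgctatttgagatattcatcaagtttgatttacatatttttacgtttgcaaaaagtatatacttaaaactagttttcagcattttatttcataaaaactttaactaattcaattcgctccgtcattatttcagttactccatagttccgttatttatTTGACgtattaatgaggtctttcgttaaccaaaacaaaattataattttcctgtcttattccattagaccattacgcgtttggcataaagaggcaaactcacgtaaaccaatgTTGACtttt

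**Figure D5:**
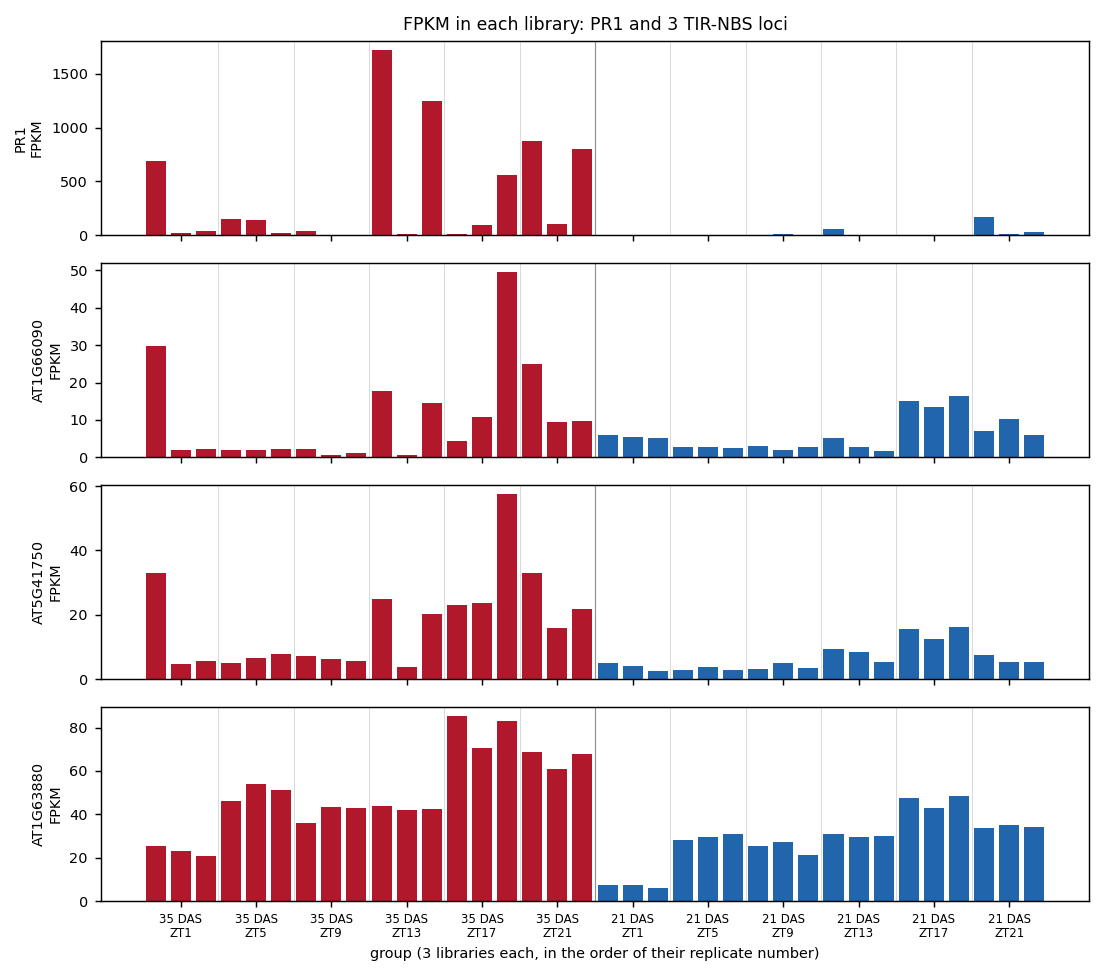
FPKM (y axis, linear from 0) of PR1 and 3 members in each of the 36 libraries, grouped by age and time on the x axis, with red bars for 35 DAS and blue for 21 DAS. At ZT1 and ZT13 of 35 DAS the bars of AT1G66090 (29.7, 1.89 and 2.14 FPKM, and 17.6, 0.73 and 14.5 FPKM) are high in the libraries high in PR1, while those of AT1G63880 are even within a group.

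Partners of the receptors were read against all loci, of which 64.5% were called higher as deposited and 42.6% after rescaling. Of 10 listed helper and signalling genes, 10 were called higher and 0 lower, with a median of 1.02. After rescaling 10 of 10 stayed so, with a median of 0.72. NRG1.3 is among these 10. It did not exceed 0.147 FPKM at 21 DAS and reached 3.23 FPKM at 35 DAS, so its rise was built into its selection. ADR1, a helper receptor, averaged 14.2 FPKM at 35 DAS and 3.59 FPKM at 21 DAS and rose by 1.67 ± 0.11. ADR1-L2 averaged 58.5 FPKM at 35 DAS and 19.9 FPKM at 21 DAS and rose by 1.502 ± 0.10. PAD4 rose by 1.33 ± 0.17, SAG101 by 1.26 ± 0.13 and EDS1 by 0.82 ± 0.19 (SE). EDS1 averaged 37.2 FPKM at 35 DAS and 16.9 FPKM at 21 DAS, and without the libraries high in PR1 its effect was 0.36. Of 10 chaperones and regulators of receptor turnover, 10 were called higher with a median of 0.61, and 5 after rescaling with a median of 0.21. RAR1, a co-chaperone that stabilises receptors, rose by 0.83 ± 0.04, with 19.6 to 32.3 FPKM at 35 DAS and 10.05 to 17.0 FPKM at 21 DAS. SRFR1, a negative regulator of receptors, rose by 0.46 ± 0.05 and was at 0.06 after rescaling. Of 10 genes of salicylic acid synthesis and response, 9 were called higher with a median of 1.77, and 9 after rescaling. CBP60G, a transcription factor of this pathway, rose by 2.69 ± 0.24, while SARD1 was at 0.55 ± 0.29 (adjusted p = 0.0796 by limma). ICS1, which makes the precursor of salicylic acid, rose by 1.33 ± 0.37 and was at 0.38 without the libraries high in PR1 (adjusted p = 0.116 by limma).

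Relatives of the members were found by the words of their description alone, so receptors described in other words are not counted here. The ADR1 and NRG1 helper receptors are not among them. Of 6 loci described as CC-NBS, with a coiled coil in place of the TIR domain, 3 were kept. CW9 rose by 0.69 ± 0.06 and AT4G14610 by 0.47 ± 0.12, and RPP8L2 fell by 0.16 ± 0.06. After rescaling AT4G14610 was at 0.14 (adjusted p = 0.264 by limma), which left 1 of the 3 called higher and 1 lower with a median of 0.14, beside 42.6% and 38.3% of all loci. Of 27 loci with a TIR domain and no NBS in the description, 8 were kept. Of these 4 were called higher and 1 lower with a median of 0.33, beside 64.5% and 23.2% of all loci. After rescaling 3 were higher and 1 lower with a median of 0.05. AT2G20142 rose by 1.49 ± 0.26, AT1G57630 by 1.55 ± 0.46 and AT1G72900 by 1.19 ± 0.25, and AT5G44910 fell by 0.58 ± 0.12. AT1G57630 ranged from 0.34 to 272 FPKM at 35 DAS, against 1.51 to 31.3 FPKM at 21 DAS, and its effect was 0.48 without the libraries high in PR1 (adjusted p = 0.174 by limma).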

How the data were processed

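RNA was sequenced from 36 leaf libraries, 3 for each of 12 groups of age and time. The authors deposited FPKM per transcript; the tools named, per the submitters' processing notes, are STAR 2.3.0e, HTSeq and edgeR 3.12.1, with TAIR10 as the genome build. How counts became FPKM, and whether strand was used, is not given in the sources used here. The column names mark age by the letters Y and O, read as young (21 DAS) and old (35 DAS). The members and lists were chosen with earlier results of these data known.

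FPKM of a locus' transcripts were summed, a level filter (3 libraries reaching 1 FPKM) kept 18729 of 33279 loci, and log2(FPKM + 1) was fitted with limma 3.58.1 in R 4.3.3 (12 group means, eBayes with trend). A fold change on this scale understates the change of low genes. Contrasts were 35 minus 21 DAS averaged over 6 times and at each time, night (ZT17, ZT21) minus day (ZT1, 5, 9, 13) of that effect, and a 24-h cosine and sine per age and their difference. P-values were adjusted by Benjamini-Hochberg over all 18729 loci. A locus was called rhythmic with an F test past 0.05 and an amplitude of at least 0.5. The spread was estimated once per locus over both ages, so the SE of an amplitude is the same at both ages. SEs of peak times come from the amplitude's SE. Named members were the 12 highest and 10 lowest called age effects, the 6 highest levels, the 4 largest amplitudes per age, the 6 smallest p for night minus day and for the rhythm difference, the 2 on each side of the filter, and listed studied loci. The fit was tested on simulated data. Positions and sequences were checked against TAIR10.1, where 32814 of 32815 loci compared overlapped the same identifier, and exon copies were found with blastn 2.17.0. Alternatives were a pseudocount of 0.1, no filter, median-of-ratios scaling, a replicate block, array weights per age, each replicate number left out, the top transcript in place of the sum, and, added after seeing the data, no libraries above 500 FPKM of PR1. Replicate numbers were not taken as pairs. No protein sequences were used here.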

Additional observations from a re-analysis of the deposited data

Results flagged for a closer look

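A test of night against day separated the age effects of 6 members. By limma, the effect was larger at night by 0.61 (AT5G40910), 0.54 (AT5G40920), 0.49 (AT5G11250), 0.69 (AT5G46500), 0.48 (AT1G69550) and 0.36 (AT1G63730) log2 units. That is 8.96% of members, beside 6.46% of all loci called in this direction and 15.8% called in either direction. Of the 6, 4 (all but AT5G40910 and AT5G40920) lost the call in each of the 3 fits that left out a replicate number. AT5G40910 is a receptor gene and AT5G40920 the pseudogene beside it.

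The daily rhythm differed between ages by its own F test in limma in 24 members, and the 6 with the smallest p include AT5G40910 and AT5G40920 again. The adjusted p was 4.4e-05 for AT1G63880, 0.0001 for AT1G63860, 0.000114 for AT5G40910, 0.000443 for AT5G40920, 0.00104 for AT5G46270 and 0.00183 for AT2G14080. Of these 6, 5 were called in each of the 3 fits that left out a replicate number, and AT2G14080 in 2 of 3. Groups of 3 libraries are too small for a test of single outlying libraries.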

How the results depend on the processing

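The count of members called higher with age ranged from 39 to 59 over the alternatives. With median-of-ratios scaling, members called lower were 10, age calls were 19 at ZT5 and 34 at ZT21, and rhythms at 21 DAS were 15. That scaling turned the sign of CHS1 (-0.28), WRR4 (-0.0481), AT1G63740 (-0.0767), AT1G66090 (-0.21), AT1G69550 (-0.0891), AT3G04210 (-0.10), AT3G44630 (-0.0065), RLM3 (-0.32), AT5G11250 (-0.0165), CSA1 (-0.19), AT5G36930 (-0.0843), AT5G38850 (-0.13), AT5G46450 (-0.0942) and VICTL (-0.27). The median of all loci is 0.04 with it and 0.39 without. Without the 6 libraries high in PR1, lower calls were 6 and night-minus-day calls 13, and the sign turned in CHS1 (-0.23), AT1G66090 (-0.65), RLM3 (-0.0564) and VICTL (-0.0222). With a pseudocount of 0.1, rhythms at 21 DAS were 36. Leaving out replicates 1 to 3 in turn gave 10 to 18 age calls at ZT13, 1 to 3 night-minus-day calls and 9 to 15 rhythm differences; the sign was not stable in AT1G17600 (-0.2953 to 0.0077), CHS1 (-0.0612 to 0.2462), AT1G66090 (-0.0896 to 0.5224) and VICTL (-0.0476 to 0.1202). These fits hold fewer libraries. With the replicate block, 61 members were called for age, 58 of them higher, and 23 for the rhythm difference, and no call of a named member's age effect changed. Libraries that share a number deviated from their group means with a mean correlation of 0.00856 (-0.473 to 0.582), against -0.00445 between numbers, so the numbers were not taken as pairs. Of 45 named members, 45 kept direction and call with a pseudocount of 0.1, with no filter, with array weights and with the block. Counting error could not be given, since the depth is not stated.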
